A study of Caenorhabditis elegans with 12 samples.

Results

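The cdr (cadmium-responsive) genes of Caenorhabditis elegans were followed in 12 RNA-seq libraries, 6 from worms on vitamin D and 6 from worms on vehicle. Members were the rows of the count table whose sequence name maps to cdr-1 through cdr-7 in the WBcel235 annotation. Of these 7 symbols 6 matched a row, among 27928 rows in all: cdr-1 (F35E8.11), cdr-2 (C54D10.1), cdr-3 (C54D10.2), cdr-4 (K01D12.11), cdr-6 (K01D12.12) and cdr-7 (K01D12.13). The symbol cdr-5 matched no gene of that annotation. The gene K01D12.14, which has also been called cdr-5, is annotated there as hrg-2. It was not counted as a member and is described as a neighbouring gene. The members were chosen by a measured value: cdr-4 had the smallest p-value of all genes in the comparison of vitamin D with vehicle. The values of cdr-4 are therefore given as a description, without a test.

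Each library came from a pool of whole wild-type worms of the N2 strain, kept on standard NGM agar at 20 °C. Treated pools received vitamin D and control pools its solvent, dimethyl sulfoxide (DMSO), for 44 h before extraction. The labels conflict: 1 gives a vitamin D dose of 100 µM, pools of 50 worms and a start at L4, the last larval stage, whereas another gives 100 mM, 40 worms and a start at an age of 1 day. Each pool is called a biological replicate in the labels. Levels are in CPM, the count per 1e+06 reads of a library after scaling by TMM factors, edgeR's correction for composition. Total counts ran from 30203731 to 38720736 per library. Vehicle libraries 2 and 3 stood apart from the other vehicle libraries: the summed level of 29 sperm markers was 647 and 544 CPM in them, 2942 to 4222 CPM in the other 4, and 1265 to 2743 CPM in the vitamin D libraries. In all, 3 of the 29 sperm markers, 1 of the 15 intestine markers and 3 of the 10 oocyte markers were at 0 in every library, and 7 of 8 markers each of muscle, neuron and hypodermis had enough counts to test. The markers act-5, egg-1, egg-2, glp-1, spe-41 and unc-119, all at 0, lie on chromosome III, where every entry was listed at 0. The markers spe-26, msp-31, tni-3 and bli-1 were also at 0 in every library but lie on other chromosomes. Whether their zeros are measurements cannot be told.  The hypodermis marker col-19 had 9.5 and 2.65 CPM in vehicle libraries 2 and 3, and 208 to 370 CPM in the other 4. It had 525 CPM in vitamin D library 5 and 2.13 to 51.8 CPM in the other vitamin D libraries. By contrast, dpy-7 had 548 and 562 CPM in vehicle libraries 2 and 3 and 14.6 to 182 CPM in the other 4. On vitamin D it had 164 to 441 CPM. The part of these differences in the cdr values was not tested. In bulk samples, fewer cells of a type and less RNA per cell cannot be told apart.

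Cadmium is a toxic metal that animals bind, export or confine to lysosomes. In the worm, cdr-1 was named for the transcript that appears in intestinal cells on exposure to cadmium, and its protein sits in the lysosomal membrane. The paralog cdr-4 is known to respond to several metals and to hypotonic medium, and cdr-6 is known as a constitutively expressed member. The series title concerns longevity, protein homeostasis and stress response genes. For the cdr family, the libraries address which members differ in transcript level when worms are kept on vitamin D.

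Of the 6 members, cdr-4 and cdr-1 were higher on vitamin D, cdr-2, cdr-6 and cdr-7 did not pass the threshold, and cdr-3 had too few counts to test. The fold differences were unequal: 9.40 for cdr-4, 1.85 for cdr-1, 1.42 for cdr-2, 1.32 for cdr-7 and 1.11 for cdr-6. Among all 13460 tested genes, 3.66% passed the same threshold and 1.75% passed it in the higher direction. The 2 called members include cdr-4, which chose the family, so nothing is read from that share.

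The levels of cdr-4 in vehicle libraries 1 to 6 were 41.6, 42.3, 44.7, 45.5, 46.9 and 41.4 CPM, and in vitamin D libraries 1 to 6 they were 357, 409, 388, 494, 384 and 436 CPM. Every vitamin D library lay above every vehicle library, at 8.16 to 11.3 times the vehicle mean. Group means were 43.7 ± 2.28 and 411 ± 48.4 CPM (SD, n = 6 and 6), a log2 fold change of 3.23 (SE 0.08). The vehicle pools held this level closely: their coefficient of variation was 5.22%, where counting error alone gives 2.68%. On vitamin D the coefficient was 11.8% against 0.813% from counting. The gene with the next smallest p-value was nta-1, whose log2 fold change was 3.83 (SE 0.18), and by size of change cdr-4 ranked 12 among tested genes. Leaving out vehicle libraries 2 and 3 gave 3.24 (SE 0.10) for cdr-4.

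For cdr-1, the gene that gave the family its name, vehicle libraries 1 to 6 had 3.42, 3.60, 3.17, 3.46, 2.32 and 2.81 CPM, and vitamin D libraries 5.32, 6.41, 4.80, 7.98, 5.65 and 4.52 CPM. The groups did not overlap, and the lowest treated pool lay above the highest control pool. Among all tested genes, 1.98% had every vitamin D library above every vehicle library. Means were 3.13 ± 0.486 CPM for vehicle and 5.78 ± 1.26 CPM for vitamin D (SD, n = 6 and 6), and the rise of 0.88 in log2 terms had an SE of 0.16 and an adjusted p of 0.0121 in edgeR's quasi-likelihood test. This level rests on 73 to 117 reads per vehicle library and 171 to 252 per vitamin D library. Summed over libraries, cdr-1 had 598 reads on vehicle and 1269 on vitamin D, where cdr-4 had 8355 and 90854. How reads that match several paralogs were counted is not given, and their part in the rise of cdr-1 was not tested. Without vehicle libraries 2 and 3 the log2 fold change was 0.95 (SE 0.19, edgeR adjusted p = 0.0047). In that fit 28.6% of all tested genes passed, against 3.66% in the main fit. The adjusted p of cdr-1 ran from 1.07e-05 to 0.0513 over 20 alternatives.

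**Figure D1:**
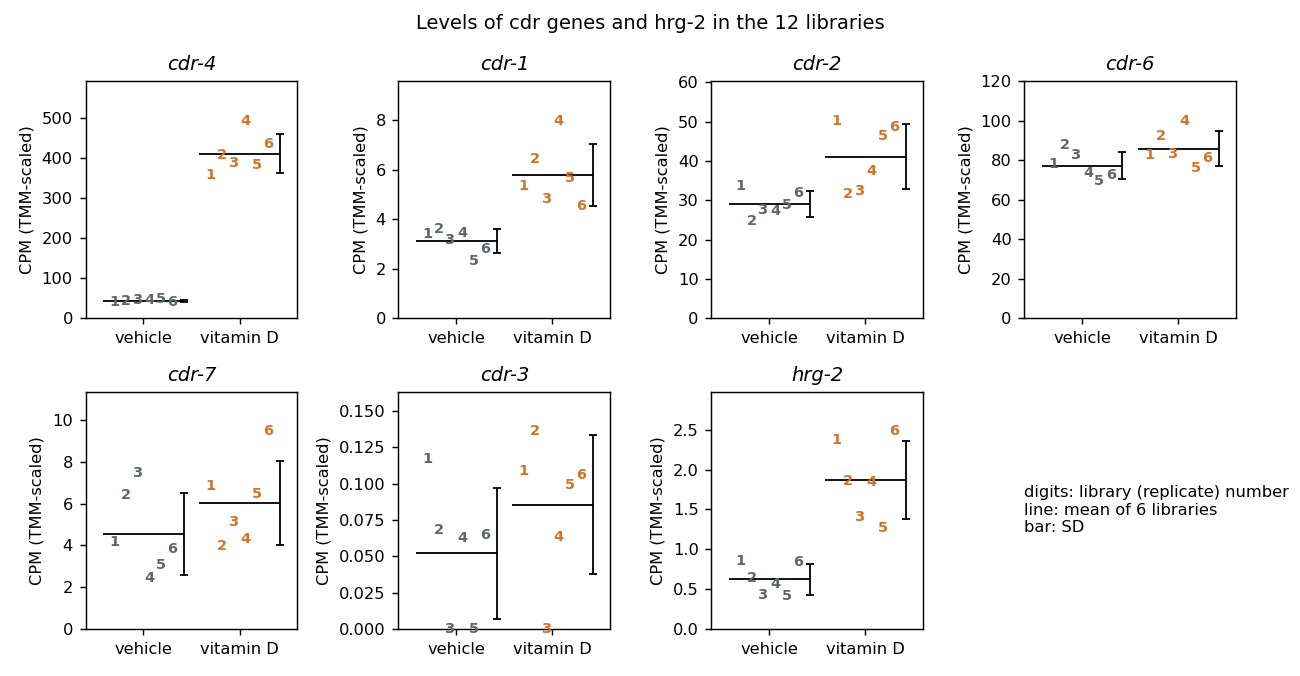
Levels of the 6 cdr genes and of hrg-2 as CPM scaled by TMM factors (vertical axes, linear, from 0, a separate range per gene) in vehicle and vitamin D libraries. Each digit is a library, horizontal lines are means of 6 and bars are SD. The groups are separate for cdr-4, cdr-1 and hrg-2, and overlap for cdr-2, cdr-6, cdr-7 and cdr-3.

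The third gene by size of difference, cdr-2, had 33.7, 24.8, 27.6, 27.2, 28.8 and 31.9 CPM in vehicle libraries 1 to 6, and 50.3, 31.7, 32.3, 37.4, 46.4 and 48.6 CPM in vitamin D libraries 1 to 6. Vitamin D libraries 1, 5 and 6 were clearly above the vehicle range, library 4 was just above it, and libraries 2 and 3 lay within it. The means were 29.0 ± 3.28 and 41.1 ± 8.35 CPM (SD, n = 6 and 6), a difference of 0.50 in log2 units (SE 0.13, adjusted p = 0.0599 in edgeR). This value sat at the threshold: in 8 of 20 alternatives it passed, among them the fits without vitamin D library 2 (adjusted p = 0.0463) or library 3 (adjusted p = 0.0472). Without vehicle libraries 2 and 3, cdr-2 passed at a smaller log2 fold change, 0.44 (SE 0.15), where 28.6% of all tested genes passed. With a sperm marker score as a covariate it had 0.52 (SE 0.13), where 12.6% passed, against 3.66% in the main fit. In others of the 8, fewer genes passed than the 492 of the main fit, such as 250 with the length trend removed and 136 with the replicate block. Over all 20 the adjusted p ran from 0.0142 to 0.137, with log2 fold changes of 0.44 to 0.60.

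The constitutive member cdr-6 had 77.8, 87.4, 82.7, 73.5, 69.3 and 72.3 CPM in the vehicle libraries and 82.4, 92.1, 83.2, 100, 75.8 and 81.1 CPM in the vitamin D libraries. The ranges overlapped broadly, with vitamin D libraries 2 and 4 above all vehicle libraries. The log2 fold change, 0.15 with an SE of 0.08, had an edgeR adjusted p of 0.365.

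For cdr-7, vehicle libraries 1 to 6 had 4.18, 6.41, 7.44, 2.43, 3.05 and 3.84 CPM and vitamin D libraries 6.82, 3.98, 5.11, 4.31, 6.47 and 9.46 CPM. Vehicle libraries 2 and 3, those with few sperm transcripts, held the highest vehicle levels of cdr-7, and the part of the sperm difference in this was not tested. Its log2 fold change was 0.40 (SE 0.30, edgeR adjusted p = 0.553), and of the 5 tested members it varied most among vehicle pools, with a coefficient of variation of 43.0% against 8.31% from counting. Without vehicle libraries 2 and 3 the value was 0.84 (SE 0.26, adjusted p = 0.0313), and cdr-6 then had 0.24 (SE 0.08, adjusted p = 0.0452) and cdr-2 0.44 (SE 0.15, adjusted p = 0.0429). For cdr-7 the value was 0.27 when vehicle library 4 was left out, and 0.23 when vitamin D library 6 was. Over the 20 alternatives its adjusted p ran from 0.0313 to 0.805, and that of cdr-6 from 0.0452 to 0.595. All 5 tested members passed in that fit, in which 28.6% of all tested genes passed. With the sperm marker score of each library as a covariate, cdr-7 had 0.41 (SE 0.21, adjusted p = 0.23).

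The remaining member, cdr-3, was barely detected. Its row held 4, 2, 0, 2, 0 and 2 reads in vehicle libraries 1 to 6 and 4, 5, 0, 2, 4 and 4 reads in vitamin D libraries 1 to 6, or 10 and 19 reads in all. The row did not pass the count filter, so a difference between the groups was not tested. In a single library a count of 0 allows up to 3 reads, which is 0.0915 CPM in vehicle library 3, above the mean of either group. Such limits cover counting error only.

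Levels per kilobase of exon put the members in an order. On vehicle, cdr-6 was highest at 83.6 ± 7.43 CPM per kb (SD, n = 6), followed by cdr-4 at 45.4 ± 2.37 and cdr-2 at 33.3 ± 3.77, with no overlap between neighbours in this order. Then came cdr-7 at 4.41 ± 1.90 and cdr-1 at 3.30 ± 0.513 CPM per kb, whose ranges overlapped, and cdr-3 at 0.0621 ± 0.0538. On vitamin D, cdr-4 stood first at 427 ± 50.2 CPM per kb, above cdr-6 at 92.9 ± 9.53 and cdr-2 at 47.3 ± 9.59, again without overlap. Both cdr-1, at 6.10 ± 1.33, and cdr-7, at 5.83 ± 1.97 CPM per kb, overlapped as before. Among tested genes with a known exon length, 79.7% lay below cdr-4 per kb on vehicle and 97.8% on vitamin D. For cdr-1 these shares were 25.1% and 34.6%.

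The family's transcripts were made up differently in the groups. In vehicle libraries cdr-6 supplied 48.9 ± 2.41% of the summed cdr counts, cdr-4 27.8 ± 2.25% and cdr-2 18.4 ± 2.37% (SD, n = 6). In vitamin D libraries cdr-4 supplied 74.7 ± 1.94%, cdr-6 15.6 ± 1.13% and cdr-2 7.55 ± 1.81% (SD, n = 6). The levels of the 6 members summed to 150 to 166 CPM in a vehicle library and to 502 to 644 CPM in a vitamin D library. With cdr-4 left out, the sums were 103 to 122 and 125 to 150 CPM.

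**Figure D2:**
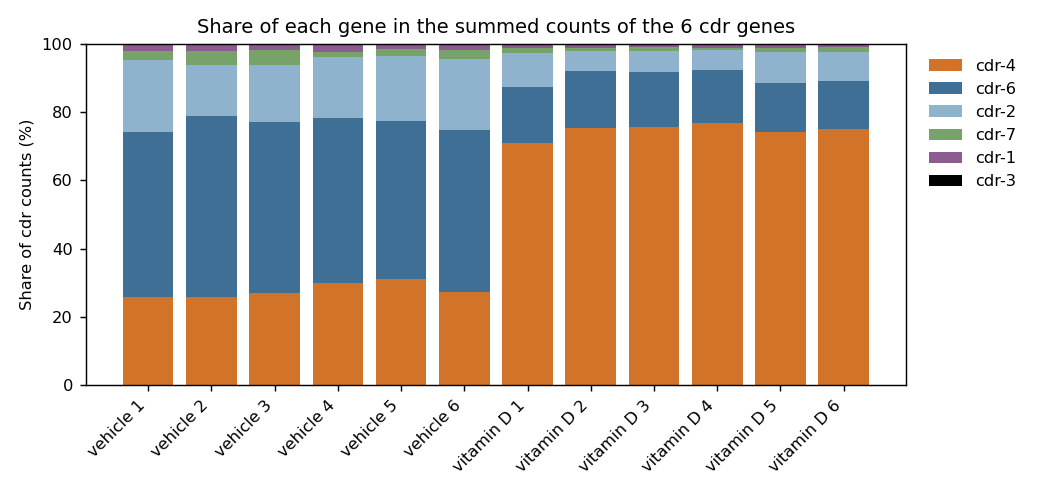
Share of each gene in the summed counts of the 6 cdr genes (vertical axis, percent) for each of the 12 libraries (horizontal axis). The share of cdr-4 is 25.7% to 31.2% on vehicle, and on vitamin D 71.1% to 76.7%.

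Whether the members other than cdr-4 differed from each other in response was tested on the ratio of their counts within each library, which does not depend on library size. Of 6 pairs among cdr-1, cdr-2, cdr-6 and cdr-7, only cdr-1 with cdr-6 passed. Their log2 ratio was -4.63 ± 0.17 on vehicle and -3.91 ± 0.20 on vitamin D (SD, n = 6 and 6), so cdr-1 gained 0.72 on cdr-6. The exact two-sided permutation p was 0.00216, the smallest this design allows, and 0.013 adjusted over the 6 pairs. The smallest ratio on vitamin D, -4.16, exceeded the largest on vehicle, -4.40. The other pairs had differences of -0.29 to 0.42 with exact permutation p-values of 0.113 to 0.898 (0.286 to 0.898 adjusted), in a design whose ratios had SDs of 0.25 to 0.72 within a group. Without vehicle libraries 2 and 3 the difference for cdr-1 with cdr-6 was 0.71, and the smallest p then possible, 0.00952, becomes 0.0571 after adjustment.

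Within the treated group the members did not share an order of libraries. Vitamin D library 4 held the highest level of cdr-4 (494 CPM), of cdr-1 (7.98 CPM) and of cdr-6 (100 CPM). In contrast, libraries 1, 5 and 6 were the 3 highest for cdr-2, at 46.4 to 50.3 CPM, and for cdr-7, at 6.47 to 9.46 CPM, where libraries 2, 3 and 4 had 31.7 to 37.4 CPM of cdr-2 and 3.98 to 5.11 CPM of cdr-7. Libraries 2, 3 and 4 were also close to each other over all genes, with a chi-square per degree of freedom of 8.4 to 13.6, against up to 152.1 for other vitamin D pairs. The part of this closeness in the pattern was not tested. Vehicle libraries were also unevenly close, at 7.4 for 5 with 6, 8.9 for 2 with 3 and up to 331.6 for other pairs. The edgeR and permutation tests took each library as independent.

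The cdr genes share a position that the choice of members did not use: all 6 lie on chromosome V, and 5 of them lie within 10012 bases. In WBcel235 coordinates the cluster runs from cdr-4 (V, 12407366 to 12408625) through hrg-2 (12409415 to 12410513), cdr-7 (12410879 to 12412113), cdr-6 (12412487 to 12413701) and cdr-2 (12414656 to 12415709) to cdr-3 (12416358 to 12417377). All 6 genes of this stretch are on the minus strand, with gaps of 365 to 954 bases between them, and no annotated gene of the table overlaps a member. The other member, cdr-1 (V, 15921309 to 15922820, plus strand), lies 3.5 Mb away.

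The gene next to cdr-4 inside the cluster, hrg-2, encodes a membrane protein of the hypodermis known for its induction when haem is scarce. Its levels were 0.848, 0.645, 0.427, 0.561, 0.413 and 0.838 CPM in vehicle libraries 1 to 6 and 2.37, 1.85, 1.41, 1.84, 1.26 and 2.48 CPM in vitamin D libraries 1 to 6. The groups did not overlap. With means of 0.622 ± 0.192 CPM for vehicle and 1.87 ± 0.493 CPM for vitamin D (SD, n = 6 and 6), hrg-2 rose 2.99-fold (log2 1.58, SE 0.25, adjusted p = 0.00428 in edgeR). These are low levels, from 13 to 29 reads per vehicle library and 51 to 94 per vitamin D library. As for cdr-1, the part of reads shared with cdr-4 was not tested. When hrg-2 was added to the ratio tests, a choice made after seeing the data, it gained on cdr-6 by 1.42, on cdr-7 by 1.13 and on cdr-2 by 1.09 (exact permutation p = 0.00216, 0.0108 and 0.00216, adjusted over 10 pairs 0.00722, 0.0271 and 0.00722). Against cdr-1 its gain was 0.70 (exact permutation p = 0.0303, adjusted 0.0606).

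Outside the cluster the nearest coding genes with counts did not pass. K01D12.10, 196 bases from cdr-4 on the opposite strand, had 0.444 ± 0.165 and 0.469 ± 0.222 CPM in vehicle and vitamin D libraries (SD, n = 6 and 6, log2 fold change 0.08, SE 0.34). At the other end C54D10.3 had 92.6 ± 11.1 and 79.2 ± 10.1 CPM, a log2 difference of -0.22 (SE 0.10, adjusted p = 0.291 in edgeR). Beside cdr-1, the nuclear hormone receptor gene nhr-108 had 3.36 ± 0.763 and 4.43 ± 0.481 CPM (log2 fold change 0.40, SE 0.16, edgeR adjusted p = 0.206), and it passed without vehicle libraries 2 and 3 (0.60, adjusted p = 0.0117, in a range of 0.0117 to 0.398 over the alternatives). F35E8.10, on the other side of cdr-1, had 0.121 ± 0.0888 and 0.159 ± 0.0849 CPM, too few counts to test.

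**Figure D3:**
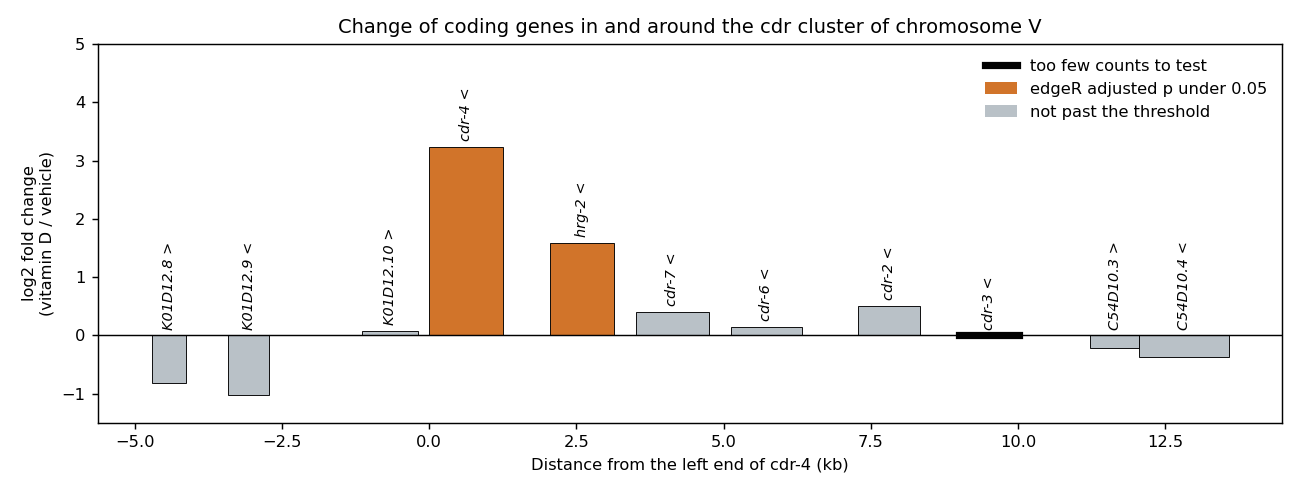
Log2 fold change (vertical axis, vitamin D over vehicle) of coding genes in and around the cdr cluster, each bar drawn over the gene's own span on a scale of kilobases from the left end of cdr-4 (horizontal axis), with > and < for the plus and minus strand. The bars of cdr-4 (3.23) and hrg-2 (1.58) stand side by side, the first being the value that chose the family, and the other tested genes of the stretch did not pass the threshold.

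In a wider list of metal response genes, few passed. Besides genes for metal handling, the list holds general stress genes, among them mek-1, sek-1, pmk-1, kgb-1, skn-1, gcs-1 and hsp-16.2. Of 30 listed genes 29 had a row, 22 were tested, 1 rose, 0 fell and 21 did not pass, or 4.55% called against 3.66% among all tested genes. The number past the threshold was 4 with total counts (18.2% of the tested list, where 5.42% of all genes passed) and 4 with DESeq2 (17.4% against 7.72%). It was 7 with the sperm score as a covariate (31.8% against 12.6%) and 5 without vehicle libraries 2 and 3 (22.7% against 28.6%). The median log2 fold change of the 22 was 0.00, as over all tested genes, and 11 of them were positive. Just short of the threshold was ftn-1, named after its value was seen (log2 fold change -1.69, SE 0.43, edgeR adjusted p = 0.0532). Its vehicle libraries had 3.52 to 16.1 CPM and its vitamin D libraries 1.59 to 3.58 CPM. It passed as lower with total counts, with DESeq2 and with the sperm score as a covariate. It also passed without vehicle libraries 2 and 3 and without vehicle library 6. The gene that rose was pgp-1, an ABC transporter of the intestine whose loss is known to make worms sensitive to heavy metals. Its levels ran from 34.5 to 53.0 CPM with a median of 36.4 in vehicle libraries, and from 107 to 178 CPM with a median of 137 in vitamin D libraries. The groups did not overlap, and in edgeR the log2 fold change was 1.83 with an SE of 0.16 (adjusted p = 5.08e-05).

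The metallothioneins mtl-1 and mtl-2, small metal-binding proteins and the best known cadmium-induced genes of the worm, did not pass. For mtl-2 the vehicle libraries had 57.9, 163, 149, 106, 79.3 and 78.1 CPM and the vitamin D libraries 58.3, 72.9, 74.4, 75.6, 26.3 and 63.5 CPM. The groups overlapped, and the 2 highest values were those of vehicle libraries 2 and 3 (log2 fold change -0.77, SE 0.30, edgeR adjusted p = 0.194). The value was -0.37 (SE 0.28) without these libraries and -0.42 with the length trend removed, and mtl-2 passed with the sperm score as a covariate (-0.82, adjusted p = 0.0434, in a range of 0.0434 to 0.666 over the alternatives). For mtl-1 the same libraries had 2.24 and 1.89 CPM, the other vehicle libraries 0.193 to 0.730 CPM and the vitamin D libraries 0.173 to 0.555 CPM. Its log2 fold change was -1.20 (SE 0.59, adjusted p = 0.344 in edgeR), and 0.08 (SE 0.43) without vehicle libraries 2 and 3.

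Phytochelatin synthase, encoded by pcs-1, makes metal-binding peptides from glutathione. The gene had 21.7 ± 4.64 and 22.5 ± 2.83 CPM in vehicle and vitamin D libraries (SD, n = 6 and 6), and a log2 fold change of 0.05 (SE 0.14). The intestinal GATA factor gene elt-2, on which cdr-1 and the metallothioneins are known to depend, had 38.4 ± 3.28 and 37.5 ± 3.33 CPM (log2 fold change -0.03, SE 0.08, edgeR adjusted p = 0.869). Its sign turned to 0.03 with total counts and to 0.02 without vehicle libraries 2 and 3. The phytochelatin transporter gene hmt-1 and the cadmium-induced numr-1 were listed at 0 in all 12 libraries, as were 4 other genes of the list. Both genes, like ttm-1, mdt-15 and cua-1 of the list, lie on chromosome III, where all 2800 entries were listed at 0. Their zeros are therefore not a measurement of their levels. The remaining gene of the list at 0, hsp-70, lies on chromosome I, and whether its zeros are a measurement cannot be told. The summed level of 15 intestine markers was 8582 to 9691 CPM in vehicle libraries and 7963 to 8644 CPM in vitamin D libraries 1 to 4 and 6, but 13623 CPM in vitamin D library 5. That library's excess lay in the yolk protein genes vit-2 and vit-6, at 2648 and 3517 CPM. Vehicle libraries 1, 4, 5 and 6 had 668 to 982 CPM of vit-2 and 1105 to 1484 CPM of vit-6. The other vitamin D libraries had only 29.9 to 117 and 41.1 to 195 CPM. These were nearer to vehicle libraries 2 and 3, with 59.7 to 67.8 and 204 to 231 CPM. The part of this yolk difference in the cdr values was not tested. Summed over the other 13 markers, vitamin D library 5 had 7459 CPM. The other vitamin D libraries had 7732 to 8532 CPM and the vehicle libraries 6939 to 8403 CPM. Without vitamin D library 5, cdr-1 had a log2 fold change of 0.89 (adjusted p = 0.0185) and hrg-2 of 1.67 (adjusted p = 0.00422, in a range of 1.89e-07 to 0.0154 over the alternatives).

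**Figure D4:**
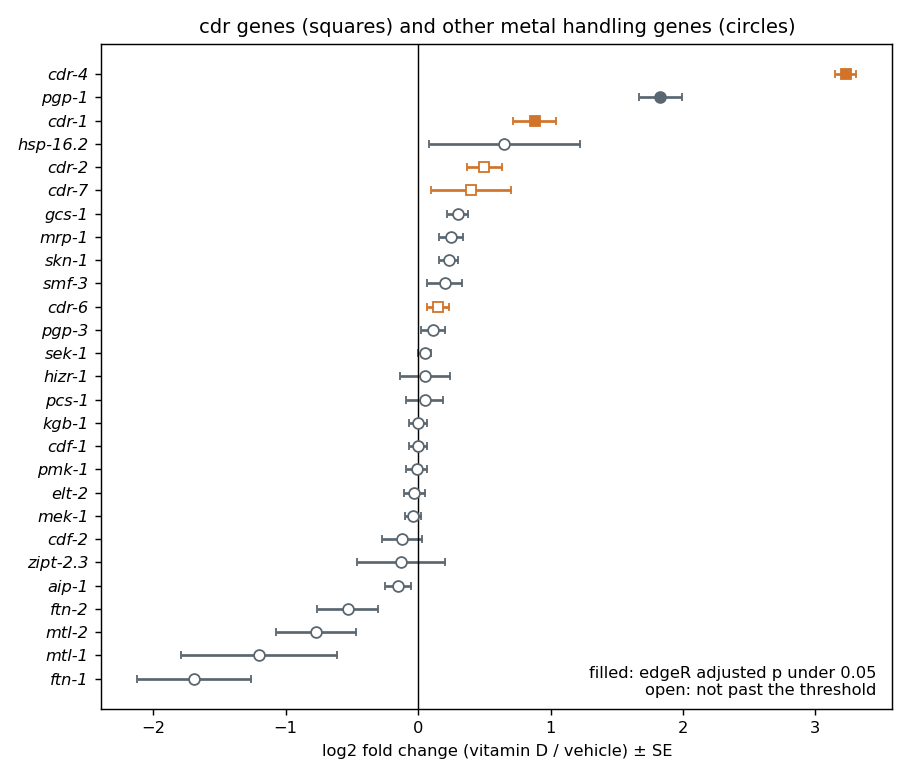
Log2 fold change (horizontal axis, vitamin D over vehicle, ± SE) of the 5 tested cdr genes (squares) and the 22 tested genes of the metal response list, general stress genes among them (circles). Filled symbols had an adjusted p under 0.05, which for cdr-4 is what chose the family and for cdr-1 and pgp-1 is the result of the test. The metallothioneins mtl-1 and mtl-2 lie to the left of 0, and neither passed.

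The genes whose profile over the 12 libraries was most like that of cdr-4 were of other families. Likeness was the root mean square difference of log2 CPM after centring each gene on its own mean, over the 12011 genes whose mean level reached 1 CPM. The nearest were ugt-9 (0.36), which encodes a UDP-glucuronosyltransferase, nta-1 (0.38), F55G11.2 (0.39), the C-type lectin gene clec-210 (0.40) and F25D1.5 (0.44), where the median over all genes was 1.64. Of the family and its neighbour, hrg-2 ranked 57 with 0.95, cdr-1 ranked 107 with 1.21, cdr-2 ranked 341 with 1.40, cdr-7 ranked 994 with 1.49 and cdr-6 ranked 2132 with 1.54. The mean of hrg-2 reached 1 CPM only through the vitamin D libraries, with 1.87 CPM there and 0.622 CPM on vehicle. On vehicle ugt-9 had 4.99 ± 0.668 CPM and clec-210 had 1.75 ± 0.939 CPM, and on vitamin D they had 34.1 ± 8.42 and 13.6 ± 1.70 CPM (SD, n = 6 and 6). These distances describe the libraries and, since the treatment sets most of the profile of cdr-4, were not tested.

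**Figure D5:**
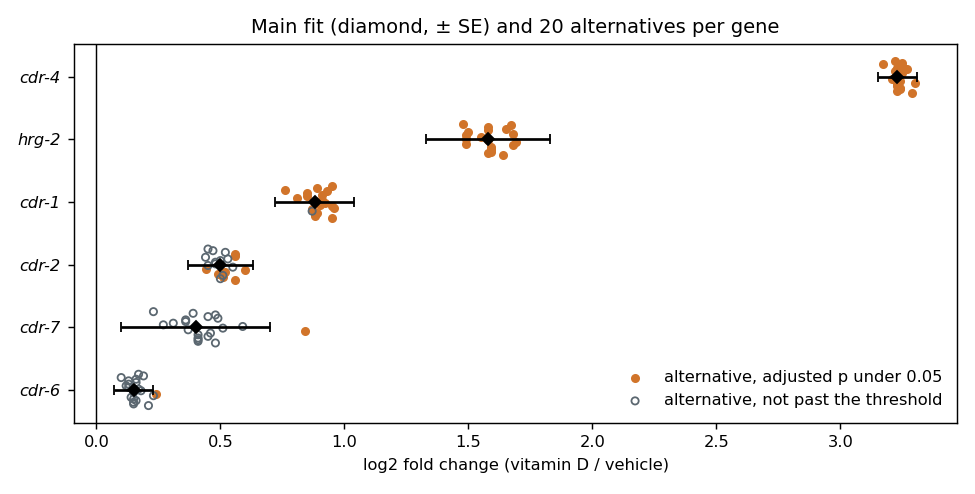
Log2 fold changes (horizontal axis, vitamin D over vehicle) of the tested cdr genes and hrg-2 in the main fit (black diamonds, ± SE) and in 20 alternative fits (circles, filled where the adjusted p was under 0.05). For cdr-4 the alternatives ran from 3.17 to 3.30, for hrg-2 from 1.48 to 1.69 and for cdr-1 from 0.76 to 0.96. The call of cdr-1 was lost in 1 alternative, the replicate block (edgeR adjusted p = 0.0513). The call of cdr-2 changed in 8 alternatives. Those of cdr-7 and cdr-6 changed in 1 each, the fit without vehicle libraries 2 and 3, where 28.6% of all tested genes passed.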

How the data were processed

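Per the labels' protocols, sequencing was paired-end with reads of 50 bases on an Illumina HiSeq. The aligner, the counting tool, the strand setting, the genome build and the treatment of reads that match several paralogs are not given in these sources, so levels of similar cdr genes are uncertain to that extent. The submitters' processing notes name edgeR 3.12.1. The authors deposited raw read counts per gene, which were used for all tests, and a table of CPM that equalled count over library total to within 2.91e-11. Sequence names were matched to WBcel235, the source of all coordinates and exon lengths: 27187 of 27928 matched a single gene. All 2800 entries of chromosome III were listed at 0.

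Counts were tested with edgeR 4.0.16 in R 4.3.3: filterByExpr (minimum count 10, minimum total 15), TMM factors, treatment as the only term, robust quasi-likelihood F test, Benjamini-Hochberg adjustment over 13460 genes and a threshold of 0.05. The standard error is the log2 fold change over the square root of F. The fit was also run on counts simulated independently for each gene and library, which lack the shared differences between libraries seen here. Ratios within a library (0.5 added to each count) were compared by exact permutation (scipy 1.17.1). Alternatives were other scalings, DESeq2 1.42.0, no filter, a replicate block, a sperm marker covariate, a length trend and left-out libraries. The text names all members, fixed genes of the metal list and those of its genes past the threshold, the nearest coding neighbours and the 5 genes most like cdr-4. Members and lists were chosen with earlier results of these data known. Same-numbered vehicle and vitamin D libraries did not deviate together (correlations -0.418 to 0.441), so the number was not taken as a pairing.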

Additional observations from a re-analysis of the deposited data

Results flagged for a closer look

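Among 21 genes examined in both groups, 3 values lay far from the other 5 libraries of their group by Dixon's criterion, where chance flags about 1 group in 20. The metallothionein gene mtl-2 had 26.3 CPM in vitamin D library 5, against 58.3 to 75.6 CPM in the other vitamin D libraries. In the same library elt-2 had 31.1 CPM, against 37.2 to 40.1 CPM. The lectin gene clec-210, whose profile was among the nearest to that of cdr-4, had 3.63 CPM in vehicle library 3, against 1.15 to 1.68 CPM in the other vehicle libraries. No level of a cdr gene was set apart in this way. Vitamin D library 5 also had the highest summed oocyte marker level, 1384 CPM against 356 to 410 CPM in the other vitamin D libraries. Vehicle libraries 2 and 3 had 337 and 299 CPM, and the other vehicle libraries 726 to 907 CPM. By this sum, the fit without vehicle libraries 2 and 3 leaves out the vehicle libraries nearest to most vitamin D libraries. The part of these differences in the values of mtl-2, elt-2 and the cdr genes was not tested.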

How the results depend on the processing

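In all 20 alternatives hrg-2 and pgp-1 kept their direction and their call, and cdr-1 did so in 19. Values of cdr-4, which chose the family, ran from 3.17 to 3.30. The number of cdr members past the threshold, 2, became 5 without vehicle libraries 2 and 3 and was 2 to 3 when each library was left out in turn. Calls over all genes, 492, became 730 with total counts, 1136 with DESeq2, 1697 with the sperm score as a covariate, 250 with the length trend removed, 3924 without vehicle libraries 2 and 3, and 260 to 625 when each library was left out. The share of calls in the higher direction, 48.0%, was 69.5% with total counts and 74.8% with the length trend removed. With replicate number as a block, 136 genes passed (76.5% higher), cdr-1 had 0.87 (adjusted p = 0.0513) and cdr-2 0.49 (adjusted p = 0.0484). Libraries share only a number, and 1 of 6 vehicle libraries correlated best with its own number.

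Calls in the metal list, 1, became 4 with total counts (mrp-1, pgp-1 and gcs-1 higher, ftn-1 lower), 4 with DESeq2, 7 with the sperm score, 5 without vehicle libraries 2 and 3, and 1 to 2 when each library was left out. The shares of all genes called in the first 4 of these fits were 5.42%, 7.72%, 12.6% and 28.6%. These names were chosen after their values were seen. Pairs of members past the threshold, 1, became 4 with hrg-2 added and 0 without vehicle libraries 2 and 3, where 4 against 6 libraries cannot pass for a single pair. The pair count stayed at 1 with 2 counts added. With a prior count of 1, the same 5 genes were nearest to cdr-4. Signs turned for K01D12.10 without vehicle libraries 2 and 3 (-0.14) and within the range of -0.20 to 0.26 over single libraries left out, below 0 without vehicle library 3 (-0.07) or vitamin D library 3. They also turned for elt-2 with total counts (0.03), without vehicle libraries 2 and 3 (0.02) or vitamin D library 5 (-0.07 to 0.02 over single libraries left out), and for mtl-1 without vehicle libraries 2 and 3 (0.08). The cause of these shifts was not tested. Depth limits cdr-3, K01D12.10 and F35E8.10.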
